A study of Mus musculus with 2 samples.

Results

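The genes described here are 9 imprinted genes with known roles in growth: Igf2, H19, Dlk1, Meg3, Peg10, Sgce, Peg3, Grb10 and Phlda2. They were taken by symbol from 16943 nuclear genes in the read counts of sorted single cells. They were picked because they stood higher with ISX-9 in these same data, so the differences between plates below describe the choice and carry no test. All 9 had a row for the ISX-9 plate and 7 had a row for the DMSO plate; Peg10 and Sgce were not listed there and were taken as 0 reads.

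The cells came from organoids, which are cultures of intestinal epithelium grown from mouse jejunum and ileum. The ISX-9 plate held cells from organoids exposed for 48 h to ISX-9 (isoxazole 9, a small molecule known as an inducer of neuronal differentiation), and the DMSO plate held cells from organoids exposed for 48 h to DMSO, the solvent, as the control. Both groups were homozygous for the Neurog3-RFP allele and both were sorted for the red fluorescence that it gives, so neither plate shows cells outside the reporter-positive fraction, and there is no group without the allele. The study concerns what ISX-9 does to the fate of endocrine progenitors. Each treatment had 1 plate of 384 wells with 1 sorted cell per well, and the same set of well barcodes served both plates. The labels do not say how many mice or cultures gave the cells.

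Wells with at least 2000 reads outside spike-in and mitochondrial rows and at least 500 genes were kept, which left 290 ISX-9 wells with a median of 22510 such reads (2007 to 326339) and 300 DMSO wells with a median of 26340 (2295 to 489134). Levels are CPM, reads per 1000000 such reads, taken over the sum of a plate's kept wells. Genes of the endocrine lineage marked both plates, and all 7 pan-endocrine markers had reads in each. They summed to 13933 CPM in ISX-9 and 13234 CPM in DMSO, but the median well held 4545 and 1189 CPM of them. The sums of other markers differed. Those of enteroendocrine progenitors were 4656 and 1564 CPM in ISX-9 and DMSO, and those of goblet cells 4117 and 9544 CPM. Those of Paneth cells were 2846 and 11806 CPM, and those of stem cells 840 and 1441 CPM. The part of these differences in the levels below was not tested. The deposited values count reads and not molecules. Poisson intervals on levels, at 95%, treat reads as independent and leave out repeated reads of a molecule and the spread between wells. Intervals on ratios share this limit, and both are too narrow where few wells hold most of the reads. Clopper-Pearson intervals on shares, at 95%, cover the sampling of wells. None of these intervals says anything of differences between cultures. Wells are not replicates of a treatment.

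Imprinted genes are expressed mainly from the copy inherited from either the mother or the father. Many of them act on growth before birth and fall in level in most tissues afterwards. Igf2 encodes insulin-like growth factor 2, is expressed from the paternal copy and lies beside H19, a maternally expressed noncoding RNA, with which it shares a control region. Dlk1, which encodes a membrane protein with EGF repeats related to Notch ligands, and the noncoding RNA gene Meg3 form a second such pair. Peg10, derived from a retrotransposon, and Sgce, which encodes epsilon-sarcoglycan, lie next to each other and are paternally expressed. Peg3 encodes a zinc finger protein. Grb10, an adaptor that dampens signalling by the insulin and IGF receptors, and Phlda2, which restrains placental growth, limit growth. The read counts do not tell the parental copies apart.

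Promoter sequences are shown for the 4 members read in at least 10% of ISX-9 wells, since these were held by the most wells. The windows are from RefSeq, build GRCm38.p6, and run from 250 bases before to 50 bases after an annotated start, 5′ to 3′ on the gene's strand. Capitals mark matches on either strand to TATAAA (the TATA box), TGACGTCA (the cAMP response element), GGAAAA (an NFAT core), a MEF2 core (CTA and TAG with 4 bases of any kind between them), and the E-boxes CAGATG and CATATG. Igf2 has 4 annotated starts, of which the most downstream is shown, and Meg3 has 2, of which the upstream one is shown; reads near the 3′ end do not tell which start was used.
Igf2, chr7:142657447-142657746, minus strand: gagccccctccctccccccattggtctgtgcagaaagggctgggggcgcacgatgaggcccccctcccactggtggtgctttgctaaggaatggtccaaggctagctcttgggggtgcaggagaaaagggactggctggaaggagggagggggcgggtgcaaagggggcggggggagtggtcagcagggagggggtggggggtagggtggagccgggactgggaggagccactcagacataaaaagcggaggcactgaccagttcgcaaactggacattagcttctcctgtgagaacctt
Meg3, chr12:109540746-109541045, plus strand: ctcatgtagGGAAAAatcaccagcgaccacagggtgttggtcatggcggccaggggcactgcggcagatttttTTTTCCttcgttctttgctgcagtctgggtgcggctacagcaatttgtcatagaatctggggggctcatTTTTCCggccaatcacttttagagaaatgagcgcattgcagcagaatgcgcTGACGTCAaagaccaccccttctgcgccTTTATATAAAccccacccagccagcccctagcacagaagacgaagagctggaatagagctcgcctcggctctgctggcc
Peg3, chr7:6730370-6730669, minus strand: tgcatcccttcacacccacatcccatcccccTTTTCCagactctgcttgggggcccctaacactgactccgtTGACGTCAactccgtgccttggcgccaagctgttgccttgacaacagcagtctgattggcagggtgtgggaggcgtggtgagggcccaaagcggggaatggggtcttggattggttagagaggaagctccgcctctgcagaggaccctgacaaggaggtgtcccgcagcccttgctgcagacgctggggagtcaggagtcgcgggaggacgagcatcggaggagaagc
Phlda2, chr7:143502475-143502774, minus strand: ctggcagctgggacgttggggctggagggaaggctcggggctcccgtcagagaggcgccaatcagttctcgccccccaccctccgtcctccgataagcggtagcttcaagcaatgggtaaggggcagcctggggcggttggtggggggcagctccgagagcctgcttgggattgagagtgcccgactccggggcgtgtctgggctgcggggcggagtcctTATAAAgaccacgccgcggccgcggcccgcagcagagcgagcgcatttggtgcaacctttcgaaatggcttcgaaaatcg

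The table held 11 windows of 6 members and none for H19, Peg10 and Sgce. TGACGTCA stood in the Meg3 and Peg3 windows shown, at positions -57 and -178 from the start, and in 1.79% of 32851 RefSeq windows of the same length. TATAAA stood in the Meg3 and Phlda2 windows and in 13.6% of all. GGAAAA stood in 4 of the 11 windows, from 4 members, and in 23.4% of all. The MEF2 core stood in 1 of the 11, from Grb10, and in 3.69% of all. Neither E-box, which occurred in 17.2% (CAGATG) and 3.91% (CATATG) of all windows, was found in the members' windows. In the Meg3 window a forward and a reverse TATAAA match overlap. These matches describe letters in a window and not binding.

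All 9 members had a higher summed level in the ISX-9 plate, and 8 of them, all but Peg3, were at least 2-fold higher on the log2 ratio of (CPM + 5). That ratio understates the difference of low genes. Over all nuclear genes, 3.88% were at least 2-fold higher and 0.744% at least 2-fold lower; since the members were picked from this contrast, nothing is read from the comparison. The filter of a mean of at least 10 CPM was passed by 6 members, of which 5 were at least 2-fold higher, beside 4.51% of the 9106 genes that passed it. A gene near 0 in DMSO passes this filter through the ISX-9 plate alone, so that count is a description as well. The median log2 ratio was 1.87 over the 9 members and 0.08 over all nuclear genes.

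Igf2 had 1599 reads in 113 ISX-9 wells and 47 reads in 5 DMSO wells. Its summed level was 135 CPM (129 to 142) in the ISX-9 plate and 3.19 CPM (2.34 to 4.24) in the DMSO plate, a ratio of 42.5 (31.8 to 58.1). The wells that held it ranged from 7.63 to 11637 CPM with a median of 206 CPM in the ISX-9 plate, and from 10.1 to 658 CPM with a median of 99.8 CPM in the DMSO plate. Igf2 was spread over many ISX-9 wells, where the highest well held 5.13% of the reads, while in the DMSO plate 1 well held 61.7% of them. Of the ISX-9 wells that held Igf2, 16 had a single read and 76 had at least 5 reads.

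H19, the noncoding neighbour of Igf2, was much rarer. It had 313 reads in 13 ISX-9 wells, 26.5 CPM (23.7 to 29.6), and a single read in 1 DMSO well, 0.0678 CPM (0.00172 to 0.378). With a single DMSO read the ratio is poorly bounded, at 391 with a counting interval of 69.7 to 15505. Its ISX-9 reads were concentrated: 3 wells held 76.7% of them, and in 5 of the 13 wells it had a single read.

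**Figure D1:**
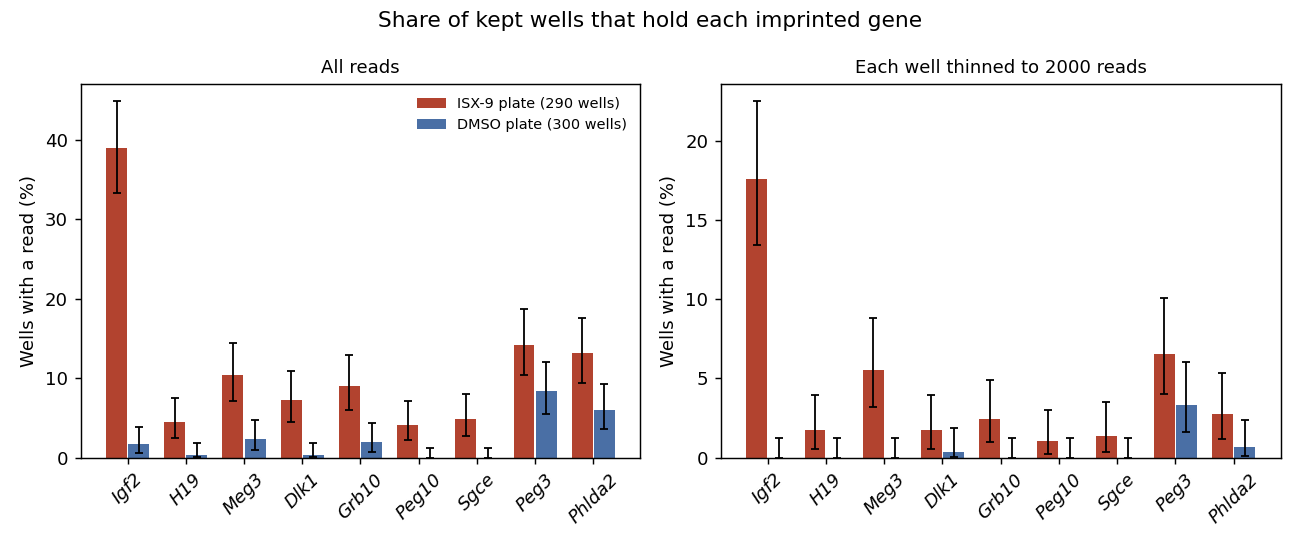
Share of kept wells with a read of each gene (y axis, percent; 290 ISX-9 wells and 300 DMSO wells) from all reads (left) and after thinning each well to 2000 reads (right; note the shorter axis); bars are shares and error bars 95% Clopper-Pearson intervals over wells of 1 plate. Igf2 stands at 39.0% of ISX-9 wells against 1.67% of DMSO wells, while Peg3 shows the smallest fold difference.

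Meg3 and Dlk1, the pair on chromosome 12, were also read mainly in the ISX-9 plate. Meg3 had 540 reads in 30 ISX-9 wells and 12 reads in 7 DMSO wells, 45.8 CPM (42.0 to 49.8) against 0.813 CPM (0.420 to 1.42), a ratio of 56.3 (31.9 to 110). In the ISX-9 wells that held it, Meg3 had the highest median level of the 9 members, 406 CPM (7.13 to 6342). A single read counts for more CPM in a shallow well. Median depths were 22535 reads in the wells with Meg3, 51310 with Igf2 and 99601 with Grb10. By reads per holding well Meg3 was not highest, with a median of 5.5, against 9 for Igf2 and 11.5 for Grb10. Of the 7 DMSO wells with Meg3, 5 had a single read. Dlk1 had 202 reads in 21 ISX-9 wells and 22 reads in 1 DMSO well, 17.1 CPM (14.8 to 19.6) against 1.49 CPM (0.934 to 2.26). The single DMSO well that held Dlk1 stood at 682 CPM, which lies inside the range of the ISX-9 wells, 3.73 to 3228 CPM.

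Peg10 and Sgce, the neighbours on chromosome 6, had no DMSO read. Peg10 had 137 reads in 12 ISX-9 wells, 11.6 CPM (9.75 to 13.7), at least 57.1-fold higher than the DMSO floor of 3 counts over the plate, 0.203 CPM. Sgce had 157 reads in 14 ISX-9 wells, 13.3 CPM (11.3 to 15.6), at least 65.4-fold higher than that floor. In the 300 DMSO wells a count of 0 allows a share of wells with a read of up to 1.22% for each of them. Their ISX-9 wells ranged from 22.4 to 1717 CPM for Peg10 and from 18.8 to 785 CPM for Sgce.

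Peg3 was the member that both plates held most alike. It had 230 reads in 41 ISX-9 wells and 195 reads in 25 DMSO wells, 19.5 CPM (17.1 to 22.2) against 13.2 CPM (11.4 to 15.2), a ratio of 1.47 (1.21 to 1.79). It passed 2-fold when CPM was averaged over wells and when wells were thinned. In those settings 6.84% and 10.7% of the genes past the filter of 10 CPM did so. That share was 4.51% in the main setting and 3% to 6.02% in the other alternatives. Levels in the wells that held Peg3 overlapped through most of their range. Their median was 123 CPM (9.09 to 2005) in the ISX-9 plate and 108 CPM (4.45 to 1061) in the DMSO plate.

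The growth-limiting genes Grb10 and Phlda2 were read in the deepest wells. Grb10 had 520 reads in 26 ISX-9 wells and 39 reads in 6 DMSO wells, 44.1 CPM (40.4 to 48.0) against 2.64 CPM (1.88 to 3.61), a ratio of 16.7 (12.03 to 23.7). Phlda2 had 418 reads in 38 ISX-9 wells and 166 reads in 18 DMSO wells, 35.4 CPM (32.1 to 39.0) against 11.3 CPM (9.60 to 13.1), a ratio of 3.15 (2.62 to 3.79). In the ISX-9 plate the wells with Grb10 had a median of 99601 reads and the wells without it 18360; for Phlda2 these medians were 99175 and 17960. In the DMSO plate the wells with Phlda2 likewise had more reads than those without, with medians of 91552 and 24278. For Meg3 and Peg3 in the ISX-9 plate depth did not differ in this way. Medians there were 22535 reads in wells with Meg3 and 22510 in wells without, and 19766 in wells with Peg3 and 22633 in wells without. In the DMSO plate the wells with these 2 genes were deeper. Medians there were 50367 and 26151 reads with and without Meg3, and 65461 and 24870 with and without Peg3.

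**Figure D2:**
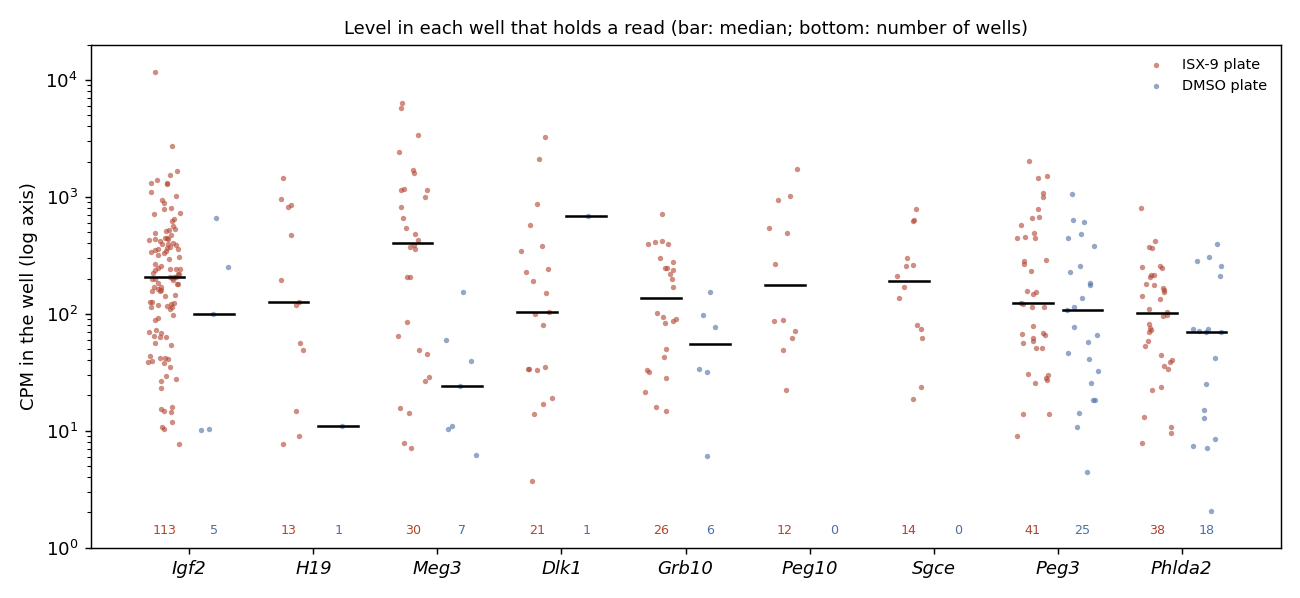
Level of each gene (y axis, CPM within the well, log axis) in every kept well with at least 1 read of it; each point is a well, bars are medians over those wells and the numbers at the bottom count them. ISX-9 wells of Igf2 run from 7.63 to 11637 CPM, and the Peg3 wells of both plates overlap, with medians of 123 and 108 CPM in ISX-9 and DMSO.

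Since a share of wells with a read depends on depth, 2000 reads were also drawn from every well. Igf2 was then left in 17.6% of ISX-9 wells and none of DMSO, Meg3 in 5.52% and none, Peg3 in 6.55% and 3.33%, and Phlda2 in 2.76% and 0.667%. The other 5 members were left in 3 to 7 ISX-9 wells each, and of them only Dlk1 was left in a DMSO well. A count of 0 in 300 wells allows up to 1.22%. Where wells had 60000 or more reads, Igf2 was held by 51 of 72 with ISX-9 (70.8%) and by 3 of 81 with DMSO (3.70%). Where they had 2000 to 10000 reads, it was held by 15 of 94 with ISX-9 (15.96%) and by none of 85 with DMSO. The summed Igf2 level in the ISX-9 plate lay between 129 and 201 CPM in each of 4 depth ranges.

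The question whether the same wells hold the members was answered by counting. At least 1 member was read in 182 wells of the ISX-9 plate, 62.8% (56.9 to 68.3), against 60 wells of the DMSO plate, 20.0% (15.6 to 24.98). At least 2 members shared 80 wells with ISX-9, 27.6% (22.5 to 33.1), against 3 wells with DMSO, 1.0% (0.207 to 2.89). At least 3 were read in 34 ISX-9 wells and in no DMSO well. The most that a well held was 5 members, in 2 ISX-9 wells. Depth rose with the count: ISX-9 wells with 0, 1, 2, 3 and 4 members had median depths of 9086, 29356, 51954, 88901 and 117978 reads. After thinning, 19 ISX-9 wells (6.55%) and 0 DMSO wells held at least 2 members.

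**Figure D3:**
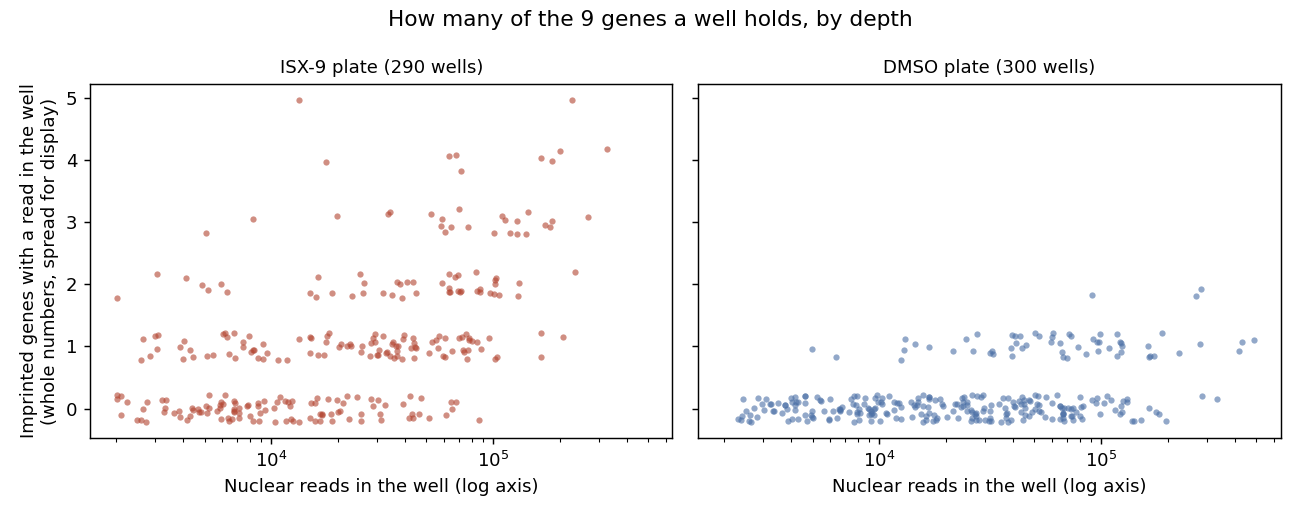
Number of the 9 genes with a read in a well (y axis, spread slightly for display) against the nuclear reads of that well (x axis, log axis); each point is a kept well, 290 in the ISX-9 plate (left) and 300 in the DMSO plate (right). Wells with 3 or more genes appear only among the 290 ISX-9 wells, mostly at high depth.

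Both wells with 5 members had high endocrine marker levels. A well of 13393 reads held 45 reads of Meg3, 28 of Dlk1, 23 of Peg10, 6 of Peg3 and 6 of Igf2, and its 7 pan-endocrine markers (Chga, Chgb, Neurod1, Scg2, Scg3, Cpe and Pcsk1n) summed to 76159 CPM. A well of 227751 reads held 36 reads of Phlda2, 32 of Igf2, 14 of Peg10, 14 of Sgce and 7 of Peg3, with 27280 CPM of these markers. This deeper well also had 1401 CPM of the cycling markers (Mki67, Top2a, Ccnb1, Cdc20 and Birc5), and the shallower well had 0. These markers ranged from 0 to 2778 CPM per ISX-9 well. Neither held a read of the mesenchymal markers. These wells were singled out after their values were seen.

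Of the 36 pairs of members, 34 shared at least 1 ISX-9 well and 3 shared a DMSO well, 1 well each. Genes that lie side by side in the genome shared few wells. Igf2 was read in 8 of the 13 ISX-9 wells with H19 (61.5%, 31.6 to 86.1) and in 105 of the 277 without (37.9%), and among wells of at least 50000 reads in 5 of 8 and 52 of 75. Meg3 was read in 4 of the 21 wells with Dlk1 (19.05%, 5.45 to 41.9) and in 26 of the 269 without (9.67%), and among the deeper wells in 1 of 9 (11.1%) and 8 of 74 (10.8%). Sgce was read in 1 of the 12 wells with Peg10 and in 13 of the 278 without, and among the deeper wells in 1 of 5 and 8 of 78.

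Several pairs that are not neighbours shared as many wells or more. Phlda2 was read in 11 of the 26 ISX-9 wells with Grb10 (42.3%, 23.4 to 63.1) and in 27 of the 264 without (10.2%). Among wells of at least 50000 reads these counts were 11 of 23 (47.8%) and 19 of 60 (31.7%). Peg3 was read in 9 of the 30 wells with Meg3 (30.0%, 14.7 to 49.4) and in 32 of the 260 without (12.3%), and among the deeper wells in 3 of 9 (33.3%) and 10 of 74 (13.5%). Peg3 was read in 8 of the 21 wells with Dlk1 (38.1%, 18.1 to 61.6) and in 33 of the 269 without (12.3%), but among the deeper wells in 2 of 9 (22.2%) and 11 of 74 (14.9%), and thinned wells held 0 such pairs. In contrast, Peg3 was read in 1 of the 26 wells with Grb10 (3.85%, 0.0973 to 19.6) and in 40 of the 264 without (15.2%), and among the deeper wells in 1 of 23 (4.35%) and 12 of 60 (20.0%).

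**Figure D4:**
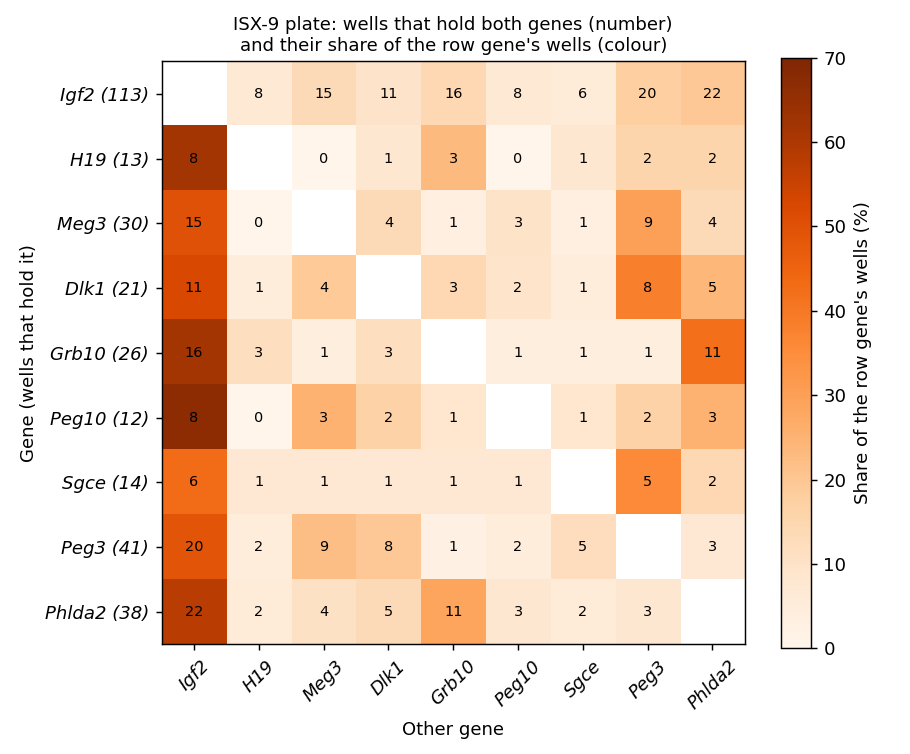
ISX-9 plate, pairs of genes in the same well: rows are a gene with its number of wells, columns the other gene, the printed number counts wells that hold both and the colour gives their share of the row gene's wells (percent). The Igf2 column is dark for every row gene, because Igf2 was read in 113 of 290 wells; away from it the darkest cells are Grb10 with Phlda2 (11 of 26 wells) and Dlk1 with Peg3 (8 of 21 wells).

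The members also differed in the kind of well that held them. Wells were split by the summed level of the 7 pan-endocrine markers at 10000 CPM, a limit set after the data were seen; 54 ISX-9 wells and 38 DMSO wells lay between 5000 and 20000 CPM, and the split is a range and not a cell type. The 120 endocrine-high ISX-9 wells were shallower than the 170 others, with medians of 17406 and 30734 reads. Meg3 was read in 20 of the 120 (16.7%, 10.5 to 24.6) and in 10 of the 170 (5.88%, 2.86 to 10.6), and the endocrine-high wells held 78.0% of its reads. Peg10 was read in 10 of the 120 (8.33%, 4.07 to 14.8) and in 2 of the 170 (1.18%, 0.143 to 4.19). Peg3 was read in 29 of the 120 (24.2%, 16.8 to 32.8) and in 12 of the 170 (7.06%, 3.70 to 12.01).

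Of these 3 members, Peg3 had the same order of shares in the DMSO plate, and the other 2 had too few reads there to give an order. Peg3 was read in 16 of 91 endocrine-high DMSO wells (17.6%, 10.4 to 27.0) and in 9 of 209 others (4.31%, 1.99 to 8.02). Meg3, with 12 DMSO reads, was read in 2 of the 91 (2.20%, 0.267 to 7.71) and 5 of the 209 (2.39%, 0.781 to 5.49). Its summed levels in these wells were 1.81 and 0.525 CPM. Peg10 had no DMSO read. After thinning, the ISX-9 shares were 10.8% and 1.76% for Meg3 and 11.7% and 2.94% for Peg3, and the DMSO shares for Peg3 were 7.69% and 1.44%.

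Phlda2, Grb10 and H19 had lower shares in the endocrine-high wells. In the ISX-9 plate Phlda2 was read in 8 of the 120 endocrine-high wells (6.67%, 2.92 to 12.7) and in 30 of the 170 others (17.6%, 12.2 to 24.2). Grb10 was read in 5 of the 120 (4.17%, 1.37 to 9.46) and 21 of the 170 (12.4%, 7.81 to 18.3), and H19 in 2 of the 120 (1.67%, 0.202 to 5.89) and 11 of the 170 (6.47%, 3.27 to 11.3). In the DMSO plate Phlda2 was read in 1 of 91 endocrine-high wells (1.10%) and in 17 of 209 others (8.13%). The endocrine-low wells were deeper in both plates, and depth was higher in wells with these genes; thinned, Phlda2 was left in 1 and 7 ISX-9 wells, so the part of depth in these differences was not tested beyond such counts. Igf2 was read in 34.2% of endocrine-high and 42.4% of other ISX-9 wells (thinned, 17.5% and 17.6%), Dlk1 in 8.33% and 6.47%, and Sgce in 5.83% and 4.12%. In the ISX-9 plate the intervals of the 2 kinds of well overlapped for 8 of the 9 members and were apart for Peg3.

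**Figure D5:**
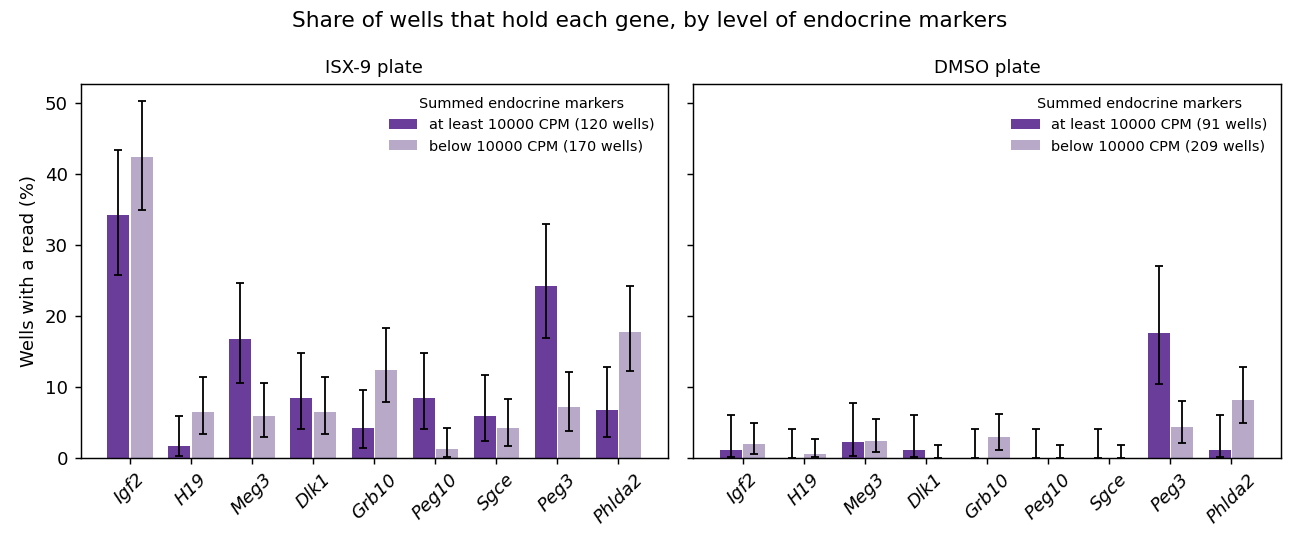
Share of wells with a read of each gene (y axis, percent) in wells whose 7 pan-endocrine markers sum to at least 10000 CPM (dark) or less (light), for the ISX-9 plate (left) and the DMSO plate (right); bars are shares and error bars 95% Clopper-Pearson intervals. Peg3 stands higher in endocrine-high wells and Phlda2 higher in the other wells on both plates.

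Wells with at least 100 CPM of the proliferation gene Mki67 held Grb10 and Phlda2 more often. Grb10 was read in 12 of 30 such ISX-9 wells (40.0%, 22.7 to 59.4) and in 14 of 260 others (5.38%, 2.97 to 8.87), and Phlda2 in 11 of 30 (36.7%) and 27 of 260 (10.4%). Shares were also higher there for Peg10 (13.3% and 3.08%), H19 (10% and 3.85%), Sgce (10% and 4.23%), Dlk1 (10% and 6.92%) and Igf2 (56.7% and 36.9%), but not for Peg3 (13.3% and 14.2%) or Meg3 (10% and 10.4%). As many as 19 ISX-9 wells lay between 50 and 200 CPM of Mki67. The Mki67 wells had a median of 98625 reads and the others 20110; thinned, Grb10 was left in 10% and 1.54% and Phlda2 in 0% and 3.08%. By Neurog3, the transcription factor gene behind the reporter, shares at 100 CPM or more and below it were 5.88% and 13.3% for Grb10 and 8.82% and 19.2% for Phlda2 in the ISX-9 plate, and 1.09% and 8.17% for Phlda2 in the DMSO plate. At 100 CPM of Neurog3 or more, 60 of 170 wells held Igf2 with ISX-9 (35.3%, 28.1 to 43.0), against 2 of 92 with DMSO (2.17%, 0.264 to 7.63). Below 100 CPM, 53 of 120 held it with ISX-9 (44.2%, 35.1 to 53.5), against 3 of 208 with DMSO (1.44%, 0.298 to 4.16). The share with Igf2 was higher in the ISX-9 plate on both sides of the Neurog3 limit; 44 ISX-9 and 32 DMSO wells lay between 50 and 200 CPM of Neurog3.

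Several of these genes are known from mesenchymal cells, so markers of such cells were counted. Of 9 mesenchymal markers 6 had a read in the ISX-9 plate, 237 reads in 13 wells, and 4 had a read in the DMSO plate, 15 reads in 4 wells. Summed, they ranged from 0 to 3516 CPM per ISX-9 well and from 0 to 219 CPM per DMSO well; Col3a1, Lum and Dpt had no read in either. Of the 182 ISX-9 wells with a member, 171 had no mesenchymal marker read, and of the 113 with Igf2, 6 had one. Of the 13 ISX-9 wells with a marker read, 11 held a member. A marker read was found in 4 of the 30 ISX-9 wells with Meg3 (13.3%), against 3.46% of those without. Without the marker-holding wells the share of wells with Igf2 was 38.6% with ISX-9 and 1.69% with DMSO. For H19, 4 of its 13 ISX-9 wells held a marker read, and its share without such wells was 3.25% in ISX-9 and 0.338% in DMSO. Of each of the immune, endothelial, and enteric neuron and glia lists 4 of 5 markers had a row. The immune markers summed to 40 reads in the ISX-9 plate and 5 in the DMSO plate, and the endothelial markers to 22 and 10. Cd3e, Tyrobp, Cdh5 and Emcn had no row or no read in either plate. Sox10 had no row. The other markers of enteric neurons and glia summed to 1104 reads (93.5 CPM, 0 to 4664 CPM per well) in 96 ISX-9 wells. In 63 DMSO wells they summed to 846 reads (57.3 CPM, 0 to 6011 CPM per well). Their part in the levels of the members was not tested.

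Among the genes read in at least 10% of ISX-9 wells, the closest patterns over the 290 ISX-9 wells were weak. For Meg3 they were Slc8a1, a sodium-calcium exchanger gene (Pearson r = 0.42), Ptprn, which encodes a dense-core granule membrane protein (0.40), and Banp (0.33). Ptprn was read in 20 of the 30 wells with Meg3. For Phlda2 they were Tmem194 (0.44), Snx7 (0.38) and Zmynd19 (0.37), and for Peg3 Tpd52l1 (0.42), Agfg2 (0.34) and Etv5 (0.30). For Igf2, Brsk2 (0.33), Rnf217 (0.30) and Slc35a2 (0.29) came first, among 9052 genes compared. These wells share a library and differ in depth, and correlations of this size in sparse counts are given as a description.

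Most other imprinted genes were not 2-fold higher. Of a list of 35 others, 31 had a row and 15 had a mean of at least 10 CPM, of which 2 were at least 2-fold higher and 1 at least 2-fold lower with ISX-9, beside 4.51% and 1.19% of all genes past that filter. The median log2 ratio was 0.10, against 0.15 over all those genes. The higher ones were Ppp1r9a, which encodes the actin-binding protein neurabin, and Cdkn1c, a cell cycle inhibitor gene. Ppp1r9a stood at 38.5 CPM in ISX-9 and 10.03 CPM in DMSO (log2 ratio 1.53), and Cdkn1c at 173 and 76.0 CPM (1.13). For Cdkn1c 1 well held 34.9% of the ISX-9 reads, and without the highest well of each plate its log2 ratio was 0.74. The lower one was Ascl2, a stem cell transcription factor gene, at 51.3 CPM in ISX-9 and 155 CPM in DMSO (-1.50). Plagl1, which encodes a zinc finger protein known to regulate other imprinted genes, stood at 7.71 and 7.39 CPM (0.04), and Mest at 0.593 CPM in ISX-9 with no DMSO read. Without the filter, 4 of the 31 were at least 2-fold higher and 1 lower, beside 3.88% and 0.744% of all nuclear genes. The others were Begain, at 9.41 CPM in 18 ISX-9 wells and 0.339 CPM in 2 DMSO wells, and Sfmbt2, at 6.52 CPM in 19 ISX-9 wells and 0.542 CPM in 1 DMSO well, both named after their values were seen.

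In the IGF pathway, 2 genes of IGF-binding proteins, Igfbp2 and Igfbp5, were at least 2-fold higher beside Igf2. Of 19 genes, all with a row, 8 apart from Igf2 had a mean of at least 10 CPM. Of these 8, 7 had a positive log2 ratio, 1 was at least 2-fold higher and 0 were at least 2-fold lower. Past that filter, 4.51% of all genes were at least 2-fold higher and 1.19% at least 2-fold lower. The 8 log2 ratios had a median of 0.64, against 0.15 over all genes past the filter. The 2-fold higher gene was Igfbp2, with 814 reads in 111 ISX-9 wells and 64 reads in 11 DMSO wells, 69.0 CPM (64.3 to 73.9) against 4.34 CPM (3.34 to 5.54), a ratio of 15.9 (12.3 to 20.8). Without the filter Igfbp5, named after its values were seen, was at least 2-fold higher too, at 5.76 CPM from 68 reads in 13 wells with ISX-9 and none with DMSO, at least 28.3-fold higher than the DMSO floor. Igfbp2, whose wells were compared with those of Igf2 after its values were seen, was read in 49 of the 113 ISX-9 wells with Igf2 and in 62 of the 177 without. Among wells of at least 50000 reads these counts were 28 of 57 and 13 of 26. Igf1r was read in 57 of the 113 and 41 of the 177, and among the deeper wells in 41 of 57 and 11 of 26. Igf2r was read in 88 and 100 of these wells, and among the deeper ones in 53 of 57 and 25 of 26. Igf2bp3 was read in 55 and 39, and among the deeper ones in 43 of 57 and 17 of 26. The part of depth in these counts was not tested. The receptors were read in both plates, Igf1r at 189 and 115 CPM (0.69), Igf2r, which clears IGF2, at 364 and 224 CPM (0.69) and the insulin receptor gene Insr at 35.2 and 25.5 CPM (0.40) in ISX-9 and DMSO.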

How the data were processed

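Single reporter-positive cells were profiled by SORT-seq, a plate form of CEL-Seq2, in which reads come from the 3′ ends of polyadenylated RNA. The authors deposited raw counts of reads per gene and well, 1 table per plate, without collapsing the molecular barcode; per the labels' protocols that barcode has 4 bases, which gives 256 combinations. Per the submitters' processing notes reads were mapped with BWA, with no version, and a human build (hg19) is named, although the rows are mouse genes with a chromosome. The build of the gene models and the counting rule for overlapping or antisense genes are not given in the sources used here. Igf2, H19 and Meg3 overlap annotated antisense genes in GENCODE M21, so their reads could include those.

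The counts were summed over kept wells and scaled to CPM outside spike-in and mitochondrial rows; a row listed for 1 plate was taken as 0 in the other. The log2 ratio uses CPM + 5. Intervals are exact (Poisson and Clopper-Pearson, 95%), and a ratio's interval comes from the exact binomial interval on the split of its reads. Wells were thinned by drawing 2000 reads without replacement. With 1 plate per treatment differences are described without a test. No doublet caller was run; dropping the deepest 5% of wells served as an alternative. Likeness is Pearson's r of log2(reads per 10000 + 1), leaving out ribosomal protein, mitochondrial and predicted genes; the 3 closest genes are named. Other genes are named when their mean was at least 10 CPM and their absolute log2 ratio at least 1, together with Cdkn1c, Plagl1, Igf2r, Mest, Igf1r and Insr. Snrpn, Zim1, Magel2 and Dio3 had no row under these symbols. The members and lists were chosen with earlier results of these data known. Calculations used Python 3.11.15, pandas 2.3.3, numpy 2.4.6 and scipy 1.17.1. The log2 ratios were tested on simulated counts. Thinning was checked only for its total of 2000 reads in a few DMSO wells, and the intervals only for the upper limit at a count of 0.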

Additional observations from a re-analysis of the deposited data

Results flagged for a closer look

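Wells that did not pass the filter were used in no comparison. Of these, 13 of 94 ISX-9 wells held a read of a member, against 1 of 84 DMSO wells. The ISX-9 wells held 13 reads of Igf2, 19 of Meg3, 23 of Peg3, 8 of Peg10, 6 of Phlda2 and 1 of Dlk1 in 110974 nuclear reads, and the DMSO wells held 4 reads of Peg3 and none of the others in 159699 nuclear reads.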

How the results depend on the processing

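No paired analysis was possible because each treatment has 1 plate. The count of members at least 2-fold higher in ISX-9 was 8 in 9 of 11 alternatives, with Peg3 below; Peg3 joined them, giving 9, with CPM averaged over wells and with thinned wells, where the share of all genes past the filter at least 2-fold higher was also larger, 6.84% and 10.7%. No log2 ratio of a member changed sign in 99 values; the ranges were 3.46 to 5.27 for Igf2, 1.77 to 4.69 for H19, 2.37 to 4.69 for Meg3, 1.24 to 2.86 for Dlk1, 1.11 to 3.66 for Peg10, 1.22 to 3.84 for Sgce, 0.23 to 1.28 for Peg3, 1.79 to 3.63 for Grb10 and 1.08 to 1.57 for Phlda2. Median-of-ratios scaling shifted the median of genes past the filter by -0.18 and ERCC scaling by -0.23. The share of all genes at least 2-fold higher in the ISX-9 plate was 4.51% with the filter on CPM and 3.88% without it.

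The share of wells with at least 2 members depends on depth and on the reads asked for. It was 20.3% of ISX-9 and 0.667% of DMSO wells with at least 2 reads per member, 13.8% and 0% with at least 5 reads, 21.4% and 0.781% with no filter on wells, 36.6% and 1.46% in wells of at least 10000 reads and 1000 genes, 24.7% and 0.351% without the deepest 5% of wells, and 6.55% and 0% in thinned wells. ISX-9 was above DMSO under each of these. With the endocrine limit at 5000 or 20000 CPM, chosen after the data were seen, the 9 ISX-9 differences and the DMSO differences of Peg3 and Phlda2 kept their sign. Of the 9 members, 5 were each held by fewer than 10% of ISX-9 wells. In ISX-9 wells of 60000 or more reads, Grb10 was held by 30.6% and H19 by 11.1%. Dlk1 was held there by 9.72%, Sgce by 8.33% and Peg10 by 6.94%. The part of depth in these shares was not tested.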
